A study of Mus musculus with 2 samples.

Results

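The genes described here carry out or support fatty acid oxidation in mitochondria and peroxisomes, and 55 of them were chosen by gene symbol from their known functions. No measured value enters that rule, but the list was drawn up with earlier results of these arrays known. They cover the carnitine shuttle, beta-oxidation, ketone body formation, and peroxisomal oxidation and import. Of the 55, 53 had at least 1 probe set that names a single gene, among 22180 such genes on the array. Cpt1b was left out because its probe set names several genes, and Ucp2 was not analysed here. The study compared liver of male mice without Iah1 in the whole body (Iah1-KO) with liver of male Iah1-WT mice, and Iah1 is named for its likeness to an isoamyl acetate-hydrolysing esterase of yeast. Mice of both genotypes ate standard chow until 6 weeks of age and a high-fat diet for 12 weeks after that, were housed singly, and had no food for 4 hours before collection in the early afternoon. The RNA of 3 mice was pooled on 1 Affymetrix array per genotype, so mouse-to-mouse spread is not visible. There are no replicates, no test between genotypes was possible, and the words higher and lower describe the KO array against the WT array.

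Fatty acids enter mitochondria as carnitine esters and are shortened there by repeated rounds of dehydrogenation, hydration, a second dehydrogenation and thiolysis, and in liver much of the acetyl-CoA leaves as ketone bodies. Peroxisomes shorten very-long-chain and branched acyl chains with oxidases that make hydrogen peroxide, and they import their enzymes through the peroxins, the Pex proteins. In hepatocytes the nuclear receptor PPAR-alpha, encoded by Ppara, drives many of these genes during fasting and when fatty acid supply is high.

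The targeted transcript was low in the KO array, at 3.90 on the log2 scale of the RMA values against 8.59 in WT, which places the KO value below the intensity filter of 4.68. The medians of all probe sets were 4.08 in WT and 4.10 in KO. All 9 measured hepatocyte markers passed the filter, as the liver label asks, and differed by -0.13 to 0.10 with a median of -0.026. Markers of sinusoidal endothelium (13 of 13 below 0, median -0.45) and of macrophages and Kupffer cells (13 of 13 that passed the filter below 0, median -0.47) were lower in KO. Their summed signals on the linear scale went from 3909 in WT to 2795 in KO for the endothelial list and from 2639 to 1875 for the macrophage list. The macrophage marker Cd14 passed the filter only through its WT value, at 4.98 in WT and 4.39 in KO. Its place below 0 was thus set by the filter. No T and NK cell, B cell or neutrophil marker passed the filter. Of 9 stellate cell markers, 7 lay below 0 (median -0.20), while Col1a1 was at 0.22 and Des at 0.93. Des passed the filter only through its KO value, at 3.75 in WT and 4.68 in KO. As the background of these marker counts, 6176 of all 11090 genes above the filter lay below 0. The 1 cholangiocyte marker that passed, Sox9, was at -0.17. Among adipocyte markers Fabp4 was at -0.25 and Cidea at 0.38, and among muscle markers Acta1 was at 0.79 and Tnnt2 at 0.42, with all others of both lists below the filter. In bulk tissue, fewer cells of a type and less RNA per cell cannot be told apart, and the part of cell composition in the differences below was not tested.

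The oxidation genes differed little between the arrays. Of the 53 measured genes, 51 passed the intensity filter, which asks that the higher of the 2 values reach the median of all genes. Their differences ran from -0.29 for Acox3 to 0.27 for Pex11a, and the median was 0.020 beside -0.025 over all 11090 genes that passed. None was 1.5-fold higher or lower, where the background over all genes was 1.47% higher and 2.45% lower. At 1.2-fold (0.26 on the log2 scale), 1 of 51 was higher against a background of 9.3% and 1 of 51 was lower against 14.4%. Of the 51 genes, 31 lay above 0 (60.8%, beside 44.3% of all genes). Hadhb and Eci3 stayed below the filter in both arrays.

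Most of these transcripts are bright, and bright probe sets scatter less, so genes of like signal are the closer reference. Of the 51 oxidation genes, 42 fell in the brightest of 4 equal groups of genes by mean signal. In that group 2.24% of all genes were at least 1.2-fold higher and 5.08% at least 1.2-fold lower, against 1 and none of the 42. At 1.5-fold, only 2 of the 2773 genes in the group were higher and 18 lower. The absence of 1.5-fold differences among the 42 therefore does not set them apart from other bright genes. The median absolute difference was 0.058 for the 42 and 0.080 for the 2773 genes of the group. Within 0.1 on the log2 scale lay 36 of the 51 oxidation genes, or 70.6%, beside 59.2% of the genes in the brightest group. A gauge of measurement error comes from genes with more than 1 probe set. The standard deviation among their probe sets was 0.27 for a single probe set's KO minus WT difference (604 genes) and 0.16 in the brightest group (71 genes). Of the 51 oxidation genes, 47 differed by 0.2 or less, which is 92.2% beside 65.9% of all genes and 85.8% of the brightest group. This gauge leaves out mice, labelling and hybridisation.

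**Figure D1:**
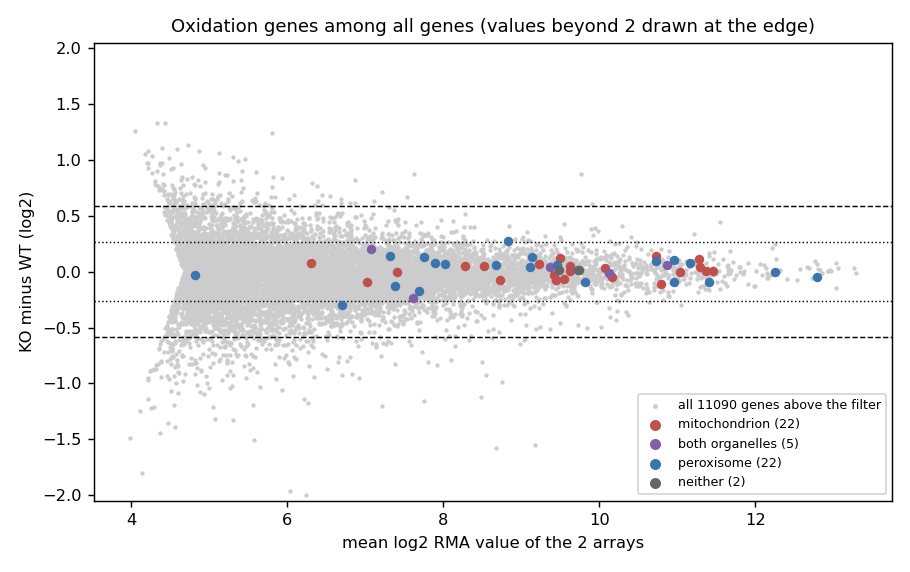
Each point is a gene that passed the intensity filter, with its mean log2 RMA value on the x axis and its KO minus WT difference on the y axis. Grey points are all 11090 genes and coloured points the 51 oxidation genes by organelle, with dotted lines at 1.2-fold and dashed lines at 1.5-fold. The oxidation genes lie inside the 1.5-fold lines and mostly at high signal, where the grey points also spread least.

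By organelle, the 22 mitochondrial genes had a median difference of 0.0058 and ran from -0.11 to 0.14. The 22 peroxisomal genes had a median of 0.048 and a wider range, from -0.29 to 0.27. The peroxisomal median was 0.043 above the mitochondrial one, but this rests on the import and membrane proteins, and with the 14 peroxisomal enzymes alone the difference was -0.022. In both organelles 13 of 22 genes lay above 0. The 5 genes whose products work in both organelles had a median of 0.046.

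**Figure D2:**
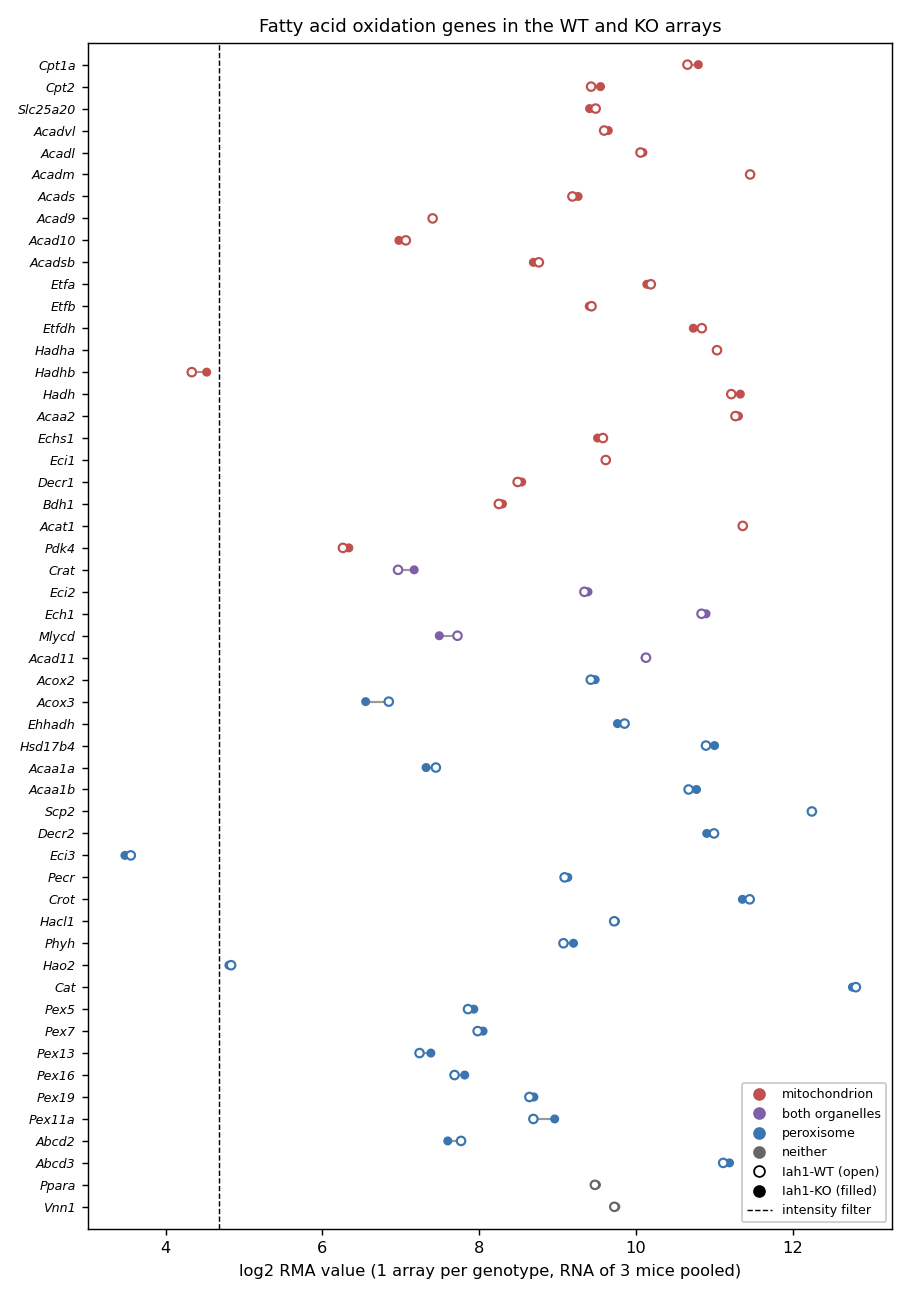
Log2 RMA values of the 53 measured genes (x axis) in the WT array (open circles) and the KO array (filled circles), grouped and coloured by organelle, with the intensity filter as a dashed line. For most genes the circles touch, and the widest gaps are those of Acox3, Pex11a, Mlycd and Crat.

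In the mitochondrial carnitine shuttle, both carnitine palmitoyltransferases were slightly higher in KO. Cpt1a, the outer-membrane enzyme that commits long-chain fatty acids to oxidation and is inhibited by malonyl-CoA, was at 10.7 in WT and 10.8 in KO, 0.14 higher. The inner-membrane enzyme Cpt2 was at 9.43 and 9.55, 0.12 higher. Slc25a20, the carrier that exchanges acylcarnitine for carnitine between them, went the other way, from 9.49 to 9.41. Each step of this shuttle thus differed by 1.10-fold or less.

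Acyl-CoA dehydrogenases open each round of beta-oxidation, and the 7 measured here centred on 0, with a median of 0.0041 and 4 above 0. Acads, for short chains, was at 9.19 in WT and 9.26 in KO. Acadvl, for very long chains, was at 9.60 and 9.65, Acadl, for long chains, differed by 0.031, and Acadm, for medium chains, by 0.0041, which turned to -0.0006 after a loess fit and -0.0125 after quantile normalization again. Acad10 was at 7.07 and 6.98, Acadsb, which acts on short branched chains, was at 8.76 and 8.69, and Acad9, also an assembly factor of respiratory complex I, differed by -0.0009.

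Electrons from these dehydrogenases pass to the electron transfer flavoprotein, and its genes lay below 0 in all 3 cases. Below 0 also lay 6176 of all 11090 genes and 1531 of the 2773 in the brightest group. Etfdh, the membrane oxidoreductase that hands the electrons to ubiquinone, had the largest difference of the mitochondrial genes on the lower side, at 10.8 in WT and 10.7 in KO (-0.11). The subunits Etfa and Etfb differed by -0.051 and -0.029. Under every rescaling of the arrays tried, the median of the 3 stayed below 0, between -0.051 and -0.026. Etfb came to -0.0046 after subtraction of the median difference of all genes. All 3 differences were smaller than the standard deviation of 0.16 among probe sets in the brightest group, so they give no direction.

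The remaining steps of the mitochondrial spiral held 4 genes above the filter, with a median of 0.019. Hadh, the dehydrogenase of medium and short hydroxyacyl-CoA, was at 11.2 in WT and 11.3 in KO, 0.12 higher. Echs1, the short-chain hydratase, was at 9.58 and 9.51. The thiolase gene Acaa2 differed by 0.039, and Hadha, the alpha subunit of the trifunctional protein, by -0.0012. Hadhb, the beta subunit of the same complex, was listed at 4.33 in WT and 4.52 in KO, not above the filter in either array, so its probe set gives no usable comparison. The gene is known to be well expressed in liver, and whether this probe set reports it was not tested, so the values are not read as a low level of Hadhb.

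Unsaturated chains need an isomerase and a reductase, and both mitochondrial genes were near 0, Eci1 at 0.0075 and Decr1 at 0.052. Of the ketone body genes, the acetoacetyl-CoA thiolase Acat1 was at 11.36 in WT and 11.37 in KO, and the hydroxybutyrate dehydrogenase Bdh1 at 8.25 and 8.30. Pdk4, the kinase that turns pyruvate dehydrogenase off and so spares glucose, was at 6.26 and 6.34 (0.076). Ppara itself was at 9.48 in WT and 9.50 in KO, and Vnn1, a cell surface pantetheinase and PPAR-alpha target, at 9.73 and 9.75.

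**Figure D3:**
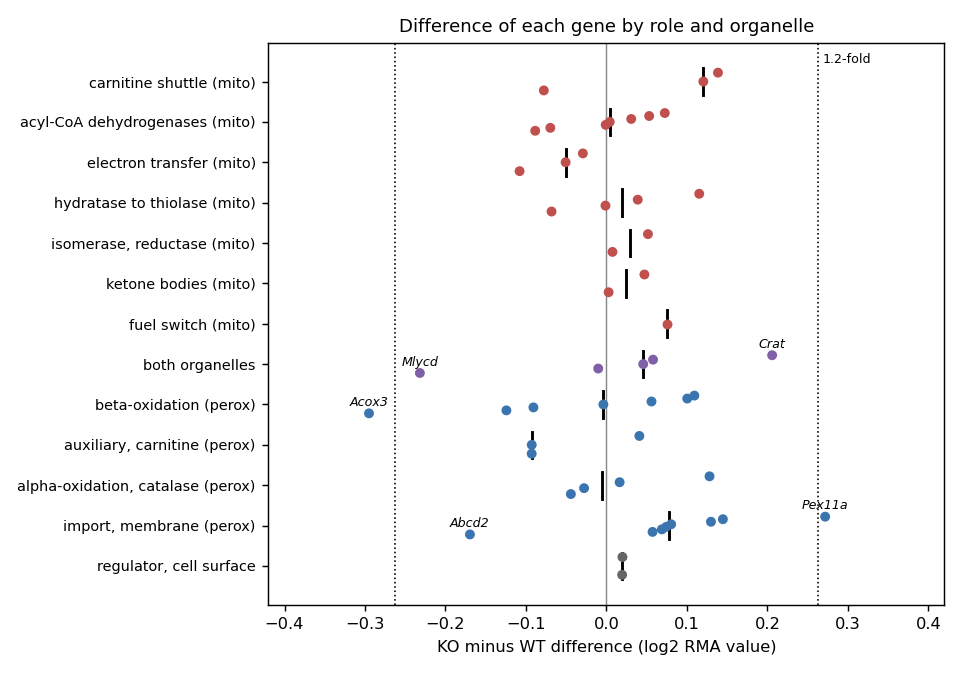
KO minus WT difference on the log2 scale (x axis) of each of the 51 genes above the filter, arranged by role (y axis) and coloured by organelle (red mitochondrial, blue peroxisomal, purple both, grey neither), with a black bar at the median of each role and dotted lines at 1.2-fold. Pex11a and Acox3 are the genes beyond the dotted lines, and 7 of the 8 import and membrane genes lie to the right of 0.

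The 5 genes shared by both organelles held some of the larger differences. Mlycd (Entrez gene 56690) encodes the malonyl-CoA decarboxylase, which removes the inhibitor of Cpt1a, and it was 1.17-fold lower, at 7.72 in WT and 7.49 in KO. Crat (Entrez gene 12908), the carnitine acetyltransferase that exports short acyl groups, was 1.15-fold higher, at 6.97 in WT and 7.17 in KO. Its 2 probe sets pointed the same way, but the larger difference, 0.29, came from the dimmer one (5.53 in WT). The brighter one (8.41 in WT) gave 0.12. The isomerase genes Ech1 and Eci2 differed by 0.058 and 0.046, and Acad11 by -0.010.

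Among the 7 genes of the peroxisomal beta-oxidation spiral the median was -0.0038, and 3 lay above 0. Acox3 (Entrez gene 80911), an acyl-CoA oxidase of branched chains, had the largest decrease of all oxidation genes, 1.23-fold, from 6.85 in WT to 6.55 in KO. It was not past 1.2-fold after a loess fit on signal or after quantile normalization again. The branched-chain oxidase gene Acox2, which also serves bile acid synthesis, was at 9.43 and 9.48. The bifunctional enzymes of the next steps went opposite ways, Ehhadh from 9.86 to 9.77 and Hsd17b4 from 10.9 to 11.0. So did the thiolase genes Acaa1a, from 7.45 to 7.32, and Acaa1b, from 10.7 to 10.8. Acaa1a and Acaa1b are close copies, so their probe sets can share signal and their opposite signs are uncertain. Scp2, which encodes a thiolase and a sterol carrier, was at 12.2 in both arrays, with a difference of -0.0038.

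The other peroxisomal enzymes also stayed close to 0. Crot, the carnitine octanoyltransferase through which shortened chains leave the peroxisome, was at 11.5 in WT and 11.4 in KO, and Decr2, the dienoyl-CoA reductase, at 11.0 and 10.9, both at -0.093. Pecr, an enoyl-CoA reductase, differed by 0.041, and the isomerase gene Eci3 was below the filter, at 3.56 and 3.48. In alpha-oxidation, which removes a single carbon from phytanic acid, the hydroxylase gene Phyh was at 9.08 in WT and 9.20 in KO. Its 2 probe sets gave 0.0047 and 0.25, so that difference came from the dimmer of them. Hacl1, the lyase that follows, differed by 0.016. The hydroxyacid oxidase gene Hao2 was near the filter, at 4.84 and 4.81, and Cat, the catalase that removes the hydrogen peroxide, was at 12.81 and 12.76.

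Of the 8 import and membrane genes, 7 lay above 0 (87.5%, beside 44.3% of all genes and 44.8% of the brightest group), with a median of 0.077. The same count, 7 of 8, was found under each of the 3 rescalings of the arrays, which gives no independent support. Subtracting the median difference of all genes (-0.025) could not change these signs, because each of the 8 lay further than that from 0. The loess fit and the second quantile normalization also moved these genes little, Pex19 from 0.057 to 0.076 and 0.075. The other filters and the brightest probe set could not change these signs, because all 8 passed each filter and had 1 probe set each. Pex11a (Entrez gene 18631), which promotes peroxisome division and is a PPAR-alpha target, was the gene with the largest increase of all oxidation genes, 1.21-fold, from 8.69 in WT to 8.96 in KO. Pex13, part of the docking complex at the membrane, was at 7.24 and 7.38, and Pex16, which places membrane proteins, at 7.69 and 7.82. The receptors of the peroxisomal targeting signals, Pex5 and Pex7, differed by 0.074 and 0.069, and the membrane protein chaperone Pex19 by 0.057. Of the acyl-CoA importers, Abcd3 was at 11.1 in WT and 11.2 in KO, while Abcd2, an importer of very-long-chain acyl-CoA, was the gene below 0, at 7.77 and 7.60. Of the 12 other peroxisome biogenesis and membrane genes above the filter, 5 lay above 0. Their median was -0.011 and turned to between 0.010 and 0.014 under the 3 rescalings of the arrays, so it gives no direction. Those with the largest differences were Abcd4 (-0.18), Pxmp4 (-0.099) and Pex26 (-0.090).

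The promoters of the genes at both ends of the range are shown because they are the only oxidation genes past 1.2-fold. The sequences are the 250 bases before the annotated start site, 5′ to 3′ on the gene's strand, from RefSeq on GRCm38.p6. Pex11a lies on the minus strand (chr7:79743132-79743381) and Acox3 on the plus strand (chr5:35582784-35583033). GC made up 55.6% of the former and 60% of the latter, beside a median of 58.8% over the promoters of the oxidation genes and 52.4% over all promoters in the table.
Pex11a: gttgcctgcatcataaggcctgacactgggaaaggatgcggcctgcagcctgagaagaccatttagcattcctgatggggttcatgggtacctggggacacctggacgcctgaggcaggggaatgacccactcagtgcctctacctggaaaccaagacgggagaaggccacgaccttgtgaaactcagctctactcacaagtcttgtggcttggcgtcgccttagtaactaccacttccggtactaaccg
Acox3: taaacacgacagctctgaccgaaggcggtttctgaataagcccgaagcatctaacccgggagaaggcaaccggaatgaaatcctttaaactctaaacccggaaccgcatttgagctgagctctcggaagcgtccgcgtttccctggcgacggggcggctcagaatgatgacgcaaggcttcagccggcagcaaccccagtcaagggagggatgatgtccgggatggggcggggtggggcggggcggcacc

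PPAR-alpha binds with its partner RXR to direct repeats of the hexamer AGGTCA spaced by a single base. Promoters of 300 bases, 250 before to 50 after the start, were searched on both strands for this repeat (AGGTCA, any base, AGGTCA) with at most 2 mismatches in the hexamers. The RefSeq table held 45 of the 55 genes with 51 promoters, and 5 of these promoters (9.8%) held a match, beside 3.86% of all 32851 promoters. The matches are printed with 8 bases on each side, 5′ to 3′ on the strand that carries the match, and capitals mark the match.
Acox2: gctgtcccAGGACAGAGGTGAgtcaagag
Cat: actctcagAGGTCAGAGAACAccagcagg
Echs1: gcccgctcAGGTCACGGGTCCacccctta
Etfa: ttgggagtAGGGCAAAGGTAAgggtgtgc
Slc25a20: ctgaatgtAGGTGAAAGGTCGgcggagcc

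They lie at chr14:8258810-8258838 (minus strand, Acox2), chr2:103485337-103485365 (minus strand, Cat), chr7:140116484-140116512 (minus strand, Echs1), chr9:55512300-55512328 (plus strand, opposite to the gene Etfa) and chr9:108662134-108662162 (plus strand, Slc25a20). Each match had 2 mismatches. Those of Cat, Echs1 and Etfa lie before the start site and those of Acox2 and Slc25a20 just after it. The 5 genes differed between the arrays by -0.078 (Slc25a20) to 0.056 (Acox2), with Cat at -0.044, Echs1 at -0.068 and Etfa at -0.051. The windows of Pex11a and Acox3 held no match, which says only that these letters are not in them.

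Other genes linked to PPAR-alpha, as targets or partners, had a range of -0.23 to 0.65. Of 21 above the filter, 13 lay above 0 (61.9%, beside 44.3% of all genes), and the median was 0.050. The other 8 lay below 0, the lowest being Plin5 (-0.23), Creb3l3 (-0.21) and Lpin1 (-0.19). At least 1.2-fold higher were 7 and none was 1.2-fold lower, against the same background of 9.3% and 14.4%. Of those 7, 6 were among the 9 genes outside the brightest signal group and 1 was among the 12 inside it, so they are not matched for signal with the oxidation genes. From the dimmest group up, 550 of 2773, 280 of 2772 and 139 of 2772 genes were that much higher, and 2.24% in the brightest group. Taking only each gene's brightest probe set, a setting added after the values were seen, 5 were 1.2-fold higher, since Acot4 and the aldehyde dehydrogenase gene Aldh3a2 (probe sets at 0.53 and 0.11) dropped out. Fgf21, a hormone released by the fasting liver, was at 4.70 in WT and 5.35 in KO, close to the filter in WT. Acot4, a peroxisomal acyl-CoA thioesterase, was 1.44-fold higher, from 6.14 to 6.66, but its 2 probe sets gave 0.15 and 0.89. The related thioesterase gene Acot3 was 1.27-fold higher, from 6.92 to 7.27. Slc22a5, the plasma membrane carnitine transporter, was 1.22-fold higher, from 7.09 to 7.38 (chosen after its values were seen, beside the carnitine genes above).

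Peroxisomal enzymes outside fatty acid oxidation had a median of -0.037, with 6 of 15 above 0. Agxt, which detoxifies glyoxylate, was 1.40-fold lower, from 9.29 in WT to 8.81 in KO. Gnpat, of ether lipid synthesis, was 1.12-fold lower and Far1, a fatty acyl-CoA reductase, 1.08-fold lower.

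Fatty acid synthesis, the reverse pathway, differed more than oxidation in the same arrays. Its 14 genes had a median of 0.24, with 12 above 0 and 6 at least 1.2-fold higher. Over all genes, 44.3% lay above 0 and 9.3% were at least 1.2-fold higher. In the brightest signal group lay 13 of the 14, with 5 at least 1.2-fold higher, beside 2.24% of all genes there. The list was known from earlier results to be higher in KO and so gives no independent support. Fasn, the fatty acid synthase, was at 9.60 in WT and 10.2 in KO, Acly, the ATP citrate lyase, at 9.33 and 9.76, and Acacb, the acetyl-CoA carboxylase at the mitochondrial surface, at 6.61 and 7.03. Acacb makes the malonyl-CoA that Mlycd removes, and they differed by 0.42 and -0.23, while Cpt1a, the enzyme it inhibits, differed by 0.14. The difference between the pathways is a description of these 2 arrays, with no test.

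**Figure D4:**
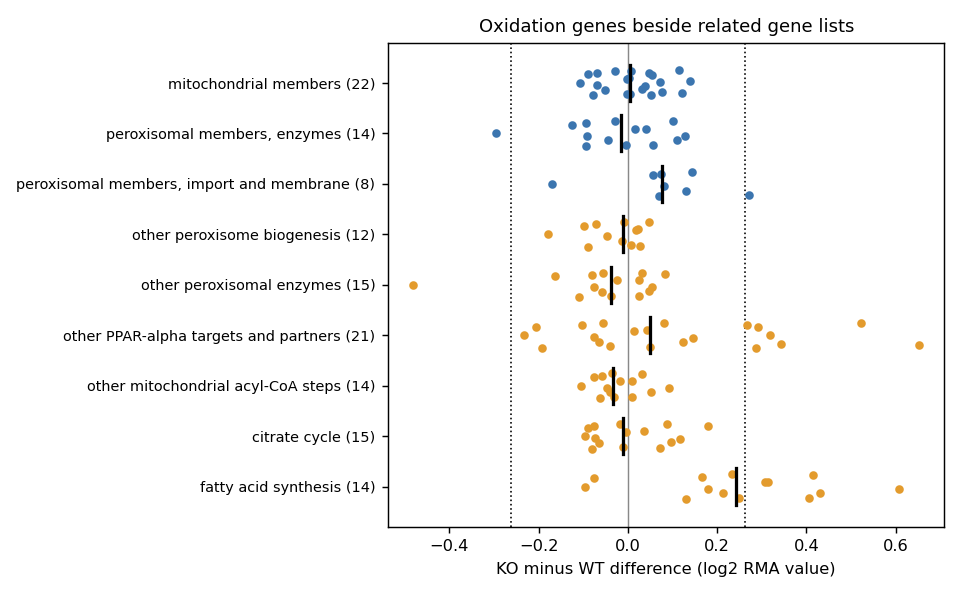
KO minus WT difference on the log2 scale (x axis) of the mitochondrial and peroxisomal oxidation genes (blue) and of related gene lists (orange), 1 point per gene above the filter, with a black bar at each median, the number of genes in brackets and dotted lines at 1.2-fold. The mitochondrial genes centre on 0.0058 and the fatty acid synthesis genes on 0.24.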

How the data were processed

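Liver RNA, 100 ng of the pool of 3 mice, was measured on 1 Affymetrix array per genotype. The deposited table holds 1 log2 value per probe set and array, made with RMA in Affymetrix Expression Console 1.3.0 per the submitters' processing notes. RMA makes the distributions of the arrays equal, so a shift of all transcripts would be removed, and it compresses differences of dim probe sets. The number of arrays limits the precision. The build the probe sets were designed on is not given in the sources used.

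Of 41345 probe sets, the platform annotation paired 23521 with 1 gene symbol, 1814 with several and 16010 with none, and only those with 1 symbol were used. All 53 measured members matched RefSeq (GRCm38.p6) by identifier with the same symbol. A gene's value was the mean over its probe sets, and the difference was KO minus WT. A gene passed the filter if its higher value was at or above 4.68, the median of such values over all genes. Differences were counted at 1.2-fold and 1.5-fold, with no p-value.

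The members, role lists, related lists and marker lists were chosen with earlier results of these data known. The rule for named genes took, by absolute difference, the leading 4 members per role list, the leading 3 genes per related list, and Iah1. Values were computed in Python 3.11.15, with loess (span 0.4) from statsmodels 0.14.6, and the counting step was tested on simulated data. Alternatives were no filter, a filter at the 75th percentile, the brightest probe set, loess, a second quantile normalization, centring on the median difference, a 2-fold threshold, list means and other organelle groupings.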

Additional observations from a re-analysis of the deposited data

How the results depend on the processing

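No member reached 1.5-fold without a filter, under the 3 rescalings or with the brightest probe set. The stricter filter and the 2-fold threshold could not have raised that count. At 1.2-fold the count of lower members, 1 (Acox3), was 0 after the loess fit and 0 after quantile normalization again. Both counts were 0 at 2-fold, as follows from none reaching 1.5-fold. Between 30 and 35 members lay above 0. The median of all members ran from 0.0195 to 0.045, beside a mean of 0.014, and the median of mitochondrial members ran from 0.0041 to 0.031. The peroxisomal median was -0.016 with enzymes alone, and the difference of the peroxisomal and mitochondrial medians was then -0.022, since the import and membrane genes were left out. Medians of smaller lists close to 0 changed sign. The peroxisomal beta-oxidation median was -0.046 after quantile normalization again and 0.021 after subtraction of the median difference of all genes, and that of alpha-oxidation, oxidase and catalase was 0.019 after that subtraction and 0.016 with the stricter filter. The other peroxisome biogenesis genes came to 0.010 after loess, 0.012 after quantile normalization again and 0.014 after that subtraction, which also gave 0.0135 for the citrate cycle. Single member differences moved by at most 0.12 (Phyh, with its brightest probe set). Acot4 was at 0.15 with its brightest probe set. No paired analysis was possible because each genotype has 1 array. The search for peroxisomal targeting signals in proteins was not run. Dim genes such as Hao2, near the filter, are limited by their signal over background.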

Other observations

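Neighbouring mitochondrial pathways differed as little as fatty acid oxidation. Of 15 citrate cycle genes above the filter, 6 lay above 0, the median was -0.011 and none reached 1.2-fold. Idh3g, a subunit of the NAD-dependent isocitrate dehydrogenase, was at 9.69 in WT and 9.87 in KO, Cs, the citrate synthase, at 9.16 and 9.28, and Ogdh, of the oxoglutarate dehydrogenase complex, at 9.73 and 9.82. The genes of other mitochondrial acyl-CoA steps, among them branched-chain amino acid breakdown, had a median of -0.033 with 5 of 14 above 0. Acad8, the isobutyryl-CoA dehydrogenase, was at 8.18 in WT and 8.07 in KO, Acsf3, the malonyl-CoA synthetase, at 6.85 and 6.94, and Acsm5, a medium-chain acyl-CoA synthetase, at 9.53 and 9.45.

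Dao, the peroxisomal D-amino acid oxidase, was listed at 3.38 in WT and 4.07 in KO, below the filter in both arrays, and is named after its values were seen.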
